A study of Mus musculus with 4 samples.

Results

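The 500 autosomal regions with the highest ratio of immunoprecipitated to input DNA in uninduced control cells were taken from 16774 regions measured on all 4 arrays of the series. DNA carrying 5-methylcytosine had been pulled down with an antibody and hybridized together with input DNA to a tiling array of short genomic segments (MeDIP-chip), in 3T3-L1 cells, a mouse embryo fibroblast line that turns into fat cells when induced. The 4 arrays were wild type control cells at day -2 (before induction), control cells at day +2 (after induction with insulin at 167 nM, dexamethasone at 1 µM and the phosphodiesterase inhibitor IBMX at 0.5 mM), and a line stably carrying shRNA8 against the long non-coding RNA slincRAD at the same days. The control cells are labelled wild type rather than a line with a control shRNA, and whether the shRNA8 line was a single clone is not given in the sources used here. Each line and day had 1 array and no replicate, so no difference could be set against a spread between cultures and no p-value is given. For the shRNA8 array of day +2, the label of the input names day +2 and yet calls the cells uninduced, and it was read as day +2.

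In mammals the methyl mark sits mostly on cytosines followed by guanine (CpG). Most of the genome carries it, whereas promoters rich in CpG are usually free of it, and methylated promoters are in general silent. Pull-down with an antibody depends on how many methylated CpGs a fragment holds, so a high MeDIP signal reflects methylation together with CpG density. The ratio to input was meant to remove what both channels share, such as how well a probe binds its target.

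A probe entered when its input signal was positive and above background on all 4 arrays, which held for 54.7% of the 167117 autosomal probes. Probes at most 1000 bp apart were joined, and a region needed 3 or more probes. The members were then the 500 regions with the highest mean log2 ratio of the processed Cy5 signal (immunoprecipitated DNA, IP) to the processed Cy3 signal (input) in control cells at day -2. The values of that array therefore chose the members and are given as a description only. The other 3 arrays entered the choice only through the filter on input. The files pair probes with mm9 coordinates and not with genes or sequences, so the regions are named by mm9 position and their genes were not analysed here.

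The members were small regions. They held 1980 probes, with a median of 4 per region (3 to 10), against a median of 5 (3 to 53) over all regions. Regions of exactly 3 probes made up 41.2% of the members and 20.3% of all regions, and those of 6 or more probes 8.2% and 31.6%. The median width was 1156 bp (443 to 3178) in members and 1352 bp over all regions. Within the members' spans the array carried 2859 probes, of which 69.3% passed the filter on input, compared with 75.3% over all regions. In 94 members every probe in the span was used.

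In control cells at day -2 the mean log2 ratio of the members ran from 1.51 through a median of 1.68 to 2.76. The median of all regions on that array was 0.15. In control cells at day +2 the members ran from 0.61 through a median of 1.60 to 2.71. In shRNA8 cells they ran from 0.35 through 1.49 to 2.68 at day -2 and from 0.29 through 1.34 to 2.46 at day +2. No member lay below the median of all regions on any array.

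**Figure D1:**
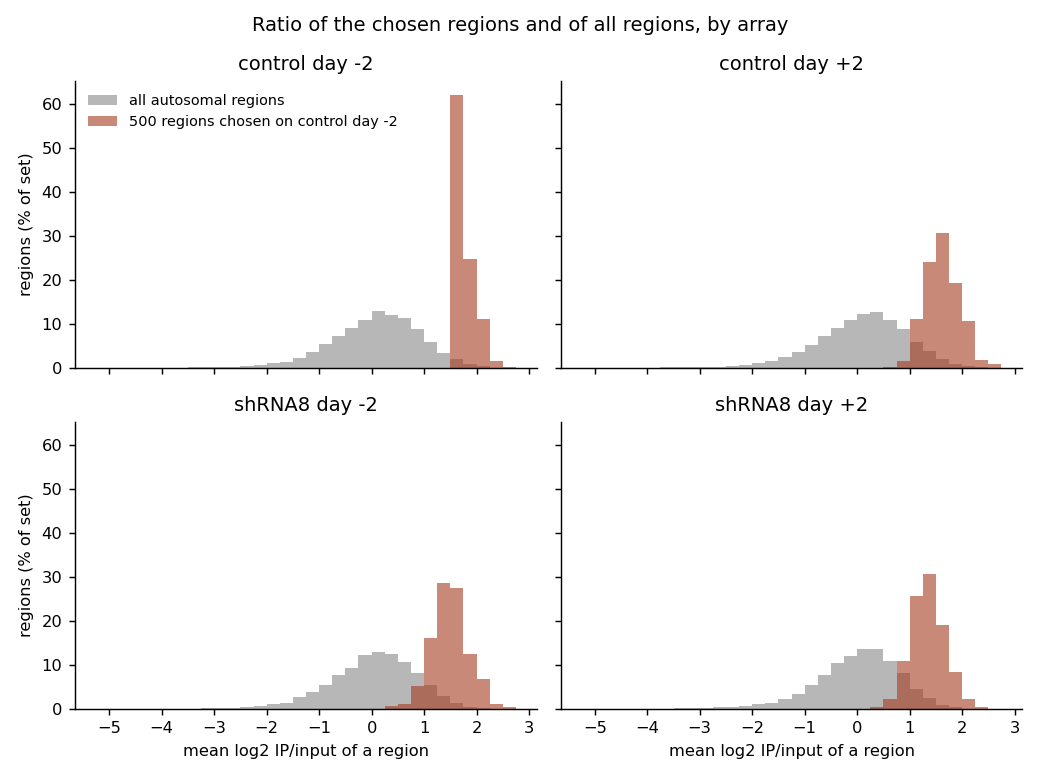
Distribution of the mean log2 IP/input ratio of regions on each array, in bins of 0.25, as the percentage of all 16774 autosomal regions (grey) and of the 500 members (red). The highest region in control day -2 (2.76) lies beyond the last bin and is not drawn on that array. The members form a sharp edge at 1.51 in control day -2, where they were chosen, and a broader peak around 1.34 to 1.60 (the medians) in the other 3 arrays.

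The members thus stayed high as a set where they had not been chosen. Their median stood above that of all regions by 1.45 on the log2 scale (2.73-fold) in control cells at day +2. In shRNA8 cells the distance was 1.40 (2.65-fold) at day -2 and 1.26 (2.39-fold) at day +2, against 1.53 (2.88-fold) on the array of the choice. Values picked for being highest on a single array are lower elsewhere by the choice alone, so the smaller distance is not read as a change. The spread over the members was 0.33 (SD, n = 500 regions) in control day +2, 0.35 in shRNA8 day -2 and 0.32 in shRNA8 day +2.

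Fewer members were again among the 500 highest regions. This held for 310 members (62.0%) in control cells at day +2, for 302 (60.4%) in shRNA8 cells at day -2 and for 266 (53.2%) in shRNA8 cells at day +2, where 500 regions are 2.98% of all. Among all regions, 218 (1.3%) were in the 500 of all 3 other arrays, and 175 of these were members. Those 175 made up 35.0% of the members, 118 were in the 500 of 2 other arrays, 117 in that of 1, and 90 in none. Most members were in the highest 10.0% of regions elsewhere: 475 in control day +2, 463 in shRNA8 day -2 and 449 in shRNA8 day +2. Over all pairs of the 4 arrays the 500 highest shared 266 to 310 regions, and both ends of that range were pairs with control day -2.

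**Figure D2:**
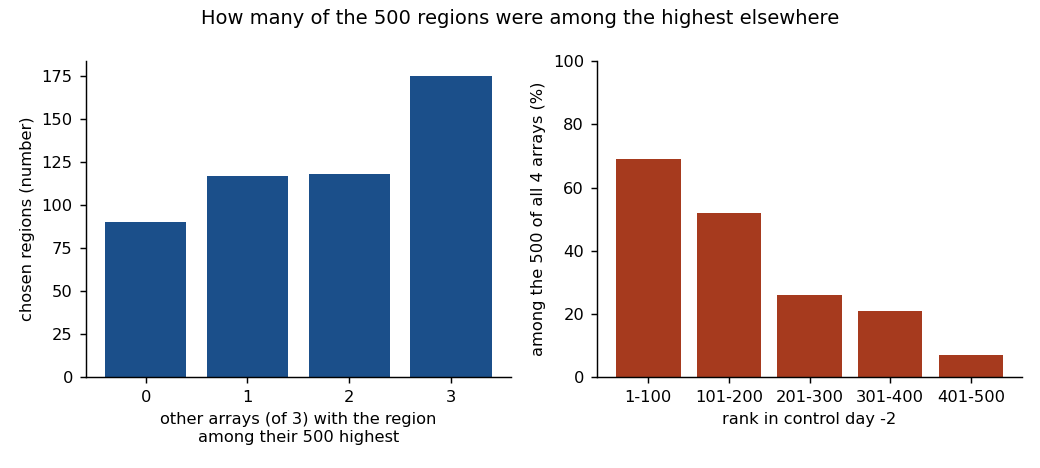
Left, number of members by how many of the 3 other arrays also had them among their 500 highest regions. Right, percentage of members among the 500 highest of all 4 arrays by rank in control day -2, from 69.0% for ranks 1 to 100 to 7.0% for ranks 401 to 500.

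Whether a member recurred on every array went with its rank. Of ranks 1 to 100, 69.0% were in the 500 of all 4 arrays, and this was 52 of 100 for ranks 101 to 200, 26.0% for 201 to 300, 21.0% for 301 to 400 and 7.0% for 401 to 500. By number of probes the share was 40.8% of 206 members with 3 probes, 35.5% of 166 with 4, 24.1% of 87 with 5 and 26.8% of 41 with 6 or more. By brightness of the IP channel in control day -2 it was 18.4% in the dimmest 125 members and 40.8%, 37.6% and 43.2% in the next 3 sets of 125. By brightness of the input it varied less, from 30.4% to 38.4%. These are splits of a set chosen on rank and were not tested.

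The 175 recurrent members had a median rank of 136 in control day -2 and median ratios of 1.83 in control day -2, 1.85 in control day +2, 1.75 in shRNA8 day -2 and 1.61 in shRNA8 day +2. The 90 members found in no other 500 had a median rank of 358. Their median ratio was 1.59 in control day -2, 1.27 in control day +2, 1.16 in shRNA8 day -2 and 1.01 in shRNA8 day +2. The log2 median of their input was 8.14 in control day -2 and 8.59, 8.80 and 9.00 in the others, whereas their IP median was 9.76, 9.79, 9.92 and 9.91. In the recurrent members the input medians were 8.28, 8.30, 8.52 and 8.69. Both sets were picked by their ratios, and over all regions the input medians were 9.38, 9.40, 9.56 and 9.62, so nothing is read from these channel values.

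The highest region of all, chr4:115272875-115273864, had ratios of 2.76 in control day -2, 2.42 in control day +2, 2.46 in shRNA8 day -2 and 2.21 in shRNA8 day +2. Its 3 probes differed little, with an SD of 0.18, 0.25, 0.56 and 0.16 on the 4 arrays. The net IP signal of this region was 187, 184, 231 and 215, and its net input only 5.99, 7.04, 10.3 and 10.8. It ranked 1, 7, 4 and 5 on the 4 arrays.

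All of the 10 highest members were among the 500 highest regions of all 4 arrays, and 7 of them had 3 probes. Second came chr14:115443067-115443653 with 2.60 in control day -2 and 2.12, 1.77 and 1.84 in the other arrays, in the order control day +2, shRNA8 day -2 and shRNA8 day +2 that is kept below. Its probes spread widely in control day -2 (SD 1.59). The region chr18:67404989-67406089 had 2.45, then 1.99, 2.20 and 2.04. At chr11:114795358-114796015 the values were 2.45, 2.01, 1.52 and 1.82, with the lowest ratio in shRNA8 cells at day -2. The next were chr16:13357221-13358776 (2.39, 2.10, 1.77 and 1.75) and chr7:26086150-26086604 (2.30, 2.10, 2.22 and 1.89).

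The remaining 4 of these 10 differed in which array was lowest. At chr9:110736800-110737457 the ratio was 2.29, 2.10, 2.44 and 1.55, and at chr2:87743537-87744756 it was 2.29, 2.30, 2.18 and 1.51. Both were lowest in shRNA8 cells at day +2. The ninth, chr6:3444414-3445134, had 2.28, 1.65, 1.45 and 1.34 and counted also among the 8 largest falls. The tenth, chr18:32975783-32976757, had 2.25, 2.06, 2.59 and 1.98, with its highest value in shRNA8 cells at day -2.

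Some members of lower rank had higher values elsewhere than those of the top ranks. Ranked by the lowest value over the 3 other arrays, chr7:72947779-72948953 came first, with 2.11, 2.71, 2.47 and 2.46. It ranked 35 in control day -2 and 1, 3 and 1 in the others. After chr4:115272875-115273864 followed chr13:93300482-93301751 (2.01, 2.07, 2.14 and 2.14) and chr15:78777176-78778525 (2.10, 2.24, 2.04 and 2.11); both stayed at 2.01 or above on every array. Both chr18 regions named above, chr14:52537817-52538553 (2.22, 2.22, 2.03 and 1.97) and chr2:120862024-120863132 (2.25, 2.03, 2.08 and 1.94) completed these 8.

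Of the 8 members with the largest fall from control day -2 to the mean of the other arrays, 7 had 3 probes, as did 41.2% of all members. Members with 3 probes were also those most often found on all 4 arrays (40.8%). At chr3:127934434-127935397 the ratio was 1.90 in control day -2 and 1.1, 0.48 and 0.95 elsewhere. Its net IP was 63.3, 61.9, 74.4 and 71.7 on the 4 arrays, while its net input was 3.10, 5.82, 13.5 and 8.64. The input of 3.10 was the lowest of any region in control day -2.

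Large falls were also seen at chr11:48760492-48761198 (1.68, then 0.84, 1.01 and 0.29) and chr11:55017682-55018249 (1.70, then 1.11, 0.50 and 0.80). The former had a net IP of 88.0, 93.0, 105 and 96.9 and a net input of 8.74, 14.1, 17.6 and 20.2. The other large falls were at chr7:150871278-150872720 (2.03, then 1.20, 1.38 and 1.05), chr13:70711061-70711514 (2.18, then 1.63, 1.07 and 1.37), chr1:140169522-140170633 (1.80, then 0.99, 0.81 and 1.19) and chr16:26755438-26756504 (1.92, then 1.26, 1.21 and 0.97). Every array other than that of the choice was lower in each of these.

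Around the limit of 500 the order was a matter of the third decimal. The members at ranks 496 to 500 and the regions at 501 to 505 all had a ratio of 1.51 in control day -2. Inside the limit, chr5:103196533-103197872 had 1.42, 1.39 and 0.94 in the other arrays, chr17:3696190-3697107 had 1.19, 0.88 and 0.74, and chr10:80260387-80262303 had 1.04, 1.41 and 1.09. The last 2 members were chr11:62874149-62875642 (1.33, 1.34 and 0.94) and chr13:9274488-9276172 (1.03, 0.88 and 1.06). Just outside, chr7:52537867-52538350 had 1.58, 1.58 and 1.59 and was in the 500 of all 3 other arrays. The next outside were chr3:107032233-107033350 (1.74, 1.38 and 1.31), chr6:48720357-48721737 (1.63, 1.30 and 1.00), chr19:13008569-13009680 (1.69, 1.36 and 1.25) and chr14:105825684-105826559 (1.30, 1.04 and 1.07).

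In log2 units the median IP of the members lay above that of all regions by 0.41 in control day -2, 0.41 in control day +2, 0.43 in shRNA8 day -2 and 0.41 in shRNA8 day +2. Their median input lay below that of all regions by more, with differences of -1.12, -0.955, -0.88 and -0.82. The gaps in control day -2 belong to the choice. With 500 regions chosen anew, both gaps were again taken on the processed signals and averaged over the other 3 arrays. The mean input gap (-0.84) turned to 0.488 for regions chosen on signals without background subtraction. It was -0.0231 without the filter on input, where the median of all regions was also another one, over 21019 regions in place of 16774. The IP gap (0.467) was 1.48 and 1.2 in the same order. Members with IP above and input below the median of all regions numbered 348, 338, 338 and 317 on the 4 arrays, against 12.1% to 12.8% of all regions. Input below the median without a bright IP occurred in 107 to 116 of the 500 members, and bright IP without a dim input in 36 to 69. Over all 16774 regions each of these classes held 6238 to 6353, so both were less common in members.

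**Figure D3:**
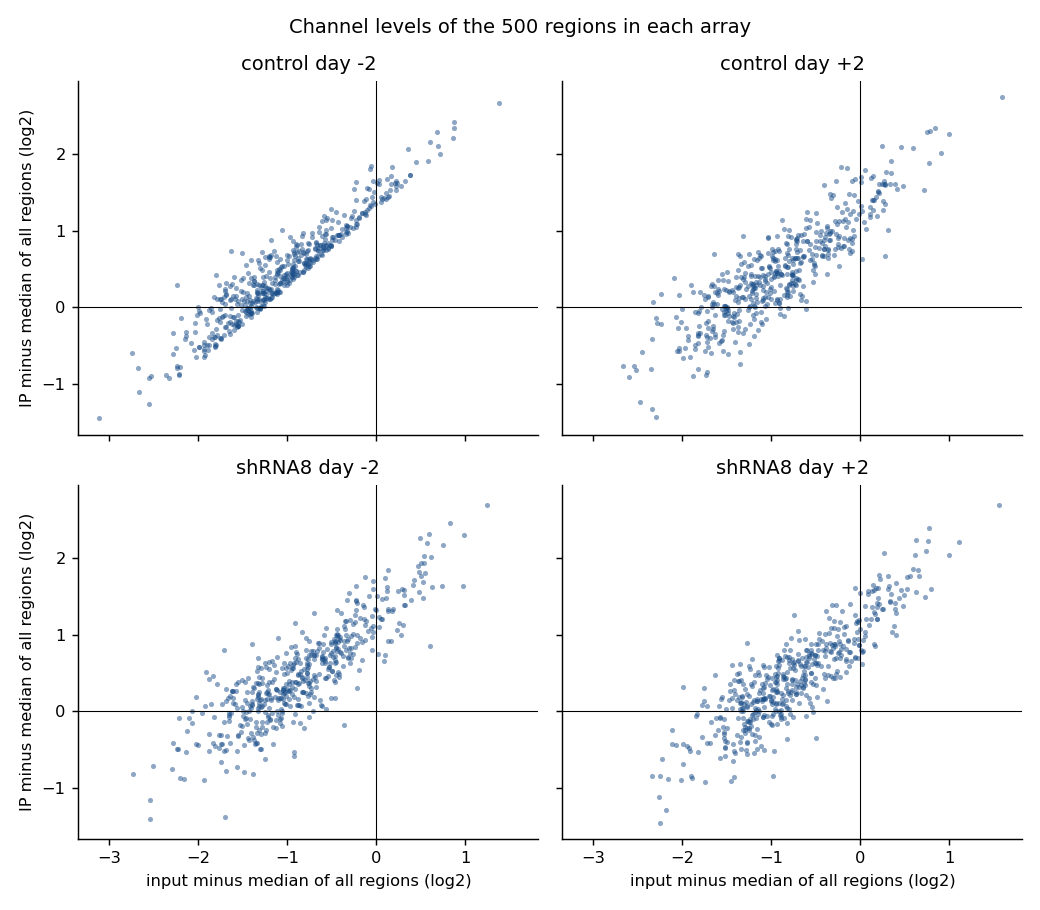
Mean log2 IP signal against mean log2 input signal of each member (n = 500), both minus the median of all regions on the same array. Most points lie in the upper left (IP above, input below), and the straight lower edge in control day -2 is the limit of the choice.

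Members were about as common among the regions with the brightest IP as any regions, since 500 regions are 2.98% of all. Ranked by IP alone, 14 of the 500 members were among the 500 brightest regions in control day -2. On the other arrays this was 16 or 17. Among the 500 with the dimmest input, likewise 2.98% of all, there were 73 members in control day -2. In control day +2, shRNA8 day -2 and shRNA8 day +2 there were 48, 34 and 29. The mean of net IP signals over probes had a median of 247 in members and 258 over all regions in control day -2, 251 and 262 in control day +2, 288 and 296 in shRNA8 day -2, and 282 and 297 in shRNA8 day +2. On this scale without logarithms members were thus slightly dimmer in IP. Net input was 17.5 in members and 50.8 over all regions in control day -2, 17.3 and 48 in control day +2, 27.1 and 67.6 in shRNA8 day -2, and 26.4 and 63.5 in shRNA8 day +2.

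The dimmest IP probe of a member had a log2 median of 8.89 in control day -2, against 7.44 over all regions. The brightest IP probe of a member had 11.3, against 11.7. In the input the brightest probe differed more, with 9.86 in members and 11.7 over all regions, than the dimmest, with 6.86 and 7.37. On the other 3 arrays the dimmest IP probe was 8.89, 9.02 and 9.04 in members and 7.41, 7.53 and 7.59 over all regions. Members had fewer probes per region, which alone raises a minimum and lowers a maximum, and these values were not matched for probe number.

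In control day -2, 42.3% of the members' probes had an input marked as well above background by the authors' software, against 64.4% of the probes of all regions. The shares were 45.9% and 66.1% in control day +2, 57.8% and 71.9% in shRNA8 day -2, and 65.5% and 75.7% in shRNA8 day +2. With probes restricted to input well above background on all arrays and the 500 highest regions taken again, 58.6% were in the 500 of all 4 arrays in place of 35.0%, but those 500 came from 9188 regions in place of 16774.

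Within members the ratios of the probes were closer together than over all regions, without matching for probe number. The SD over probes had a median of 0.92 in members and 1.41 over all regions in control day -2, 0.92 and 1.41 in control day +2, 0.91 and 1.37 in shRNA8 day -2, and 0.83 and 1.30 in shRNA8 day +2. The pair for control day -2 is affected by the choice, since a low probe lowers the mean used for ranking. Every probe lay above the array median in 372 members in control day -2 (6.05% of all regions). This was so for 323 members in control day +2 (5.97% of all regions), 324 in shRNA8 day -2 (5.83%) and 311 in shRNA8 day +2 (5.84%). Members had fewer probes per region, which alone makes it easier for every probe to lie above the median.

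Without the highest probe of each region, chosen in control day -2, the members had median ratios of 1.36, 1.31, 1.20 and 1.08 on the 4 arrays, while all regions treated alike had medians of -0.26, -0.24, -0.28 and -0.25. Of the 500, 384 were then still among the 500 highest in control day -2, 273 in control day +2, 270 in shRNA8 day -2 and 249 in shRNA8 day +2. Below the median of all regions lay 0, 0, 0 and 2 members. Ranked by the median of probes in place of the mean, 279 of the 500 members were chosen again, and 23.2% of the regions so chosen were in the 500 of all 4 arrays.

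The highest and lowest probes of control day -2 recurred on the other arrays less often in members than over all regions. The probe that was highest in control day -2 was also highest in control day +2 in 67.2% of members and 74.6% of all regions. In shRNA8 cells this was 63.6% and 73.7% at day -2 and 64.8% and 72.3% at day +2. For the lowest probe the shares were 66.8% to 70.6% in members and 82.7% to 85.1% over all regions. The order was taken from the array of the choice. The ratios of members' probes were also closer together (median SD of 0.92 against 1.41 in control day -2). Members had fewer probes per region than all regions. The comparison was not matched for any of these, so nothing is read from it.

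The member with most probes, chr13:41743803-41746466, had 10 probes. Its ratios were 1.65, 1.68, 1.63 and 1.55, and it was in the 500 of all 4. Its probes ran from 0.05 to 3.15 in control day -2. The lowest probe was the same on all 4 arrays, with 0.05, -0.02, -0.10 and 0.21. Of the members with 7 probes, chr9:58388340-58389943 had 1.94, 1.88, 1.96 and 1.85, and chr16:17576273-17577773 had 1.87, 1.94, 1.99 and 1.61. In both, all 7 probes were above the array median on each array.

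Other members with 7 probes varied more. At chr8:86264852-86266322 the ratio was 1.76, 2.04, 1.82 and 1.34, and the region stayed in the 500 of all arrays. At chr14:55554020-55555717 it was 1.68, 1.62, 1.39 and 1.21. At chr8:26950657-26952393 it was 1.74, 1.45, 1.22 and 1.15, and no other array had it among its 500.

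**Figure D4:**
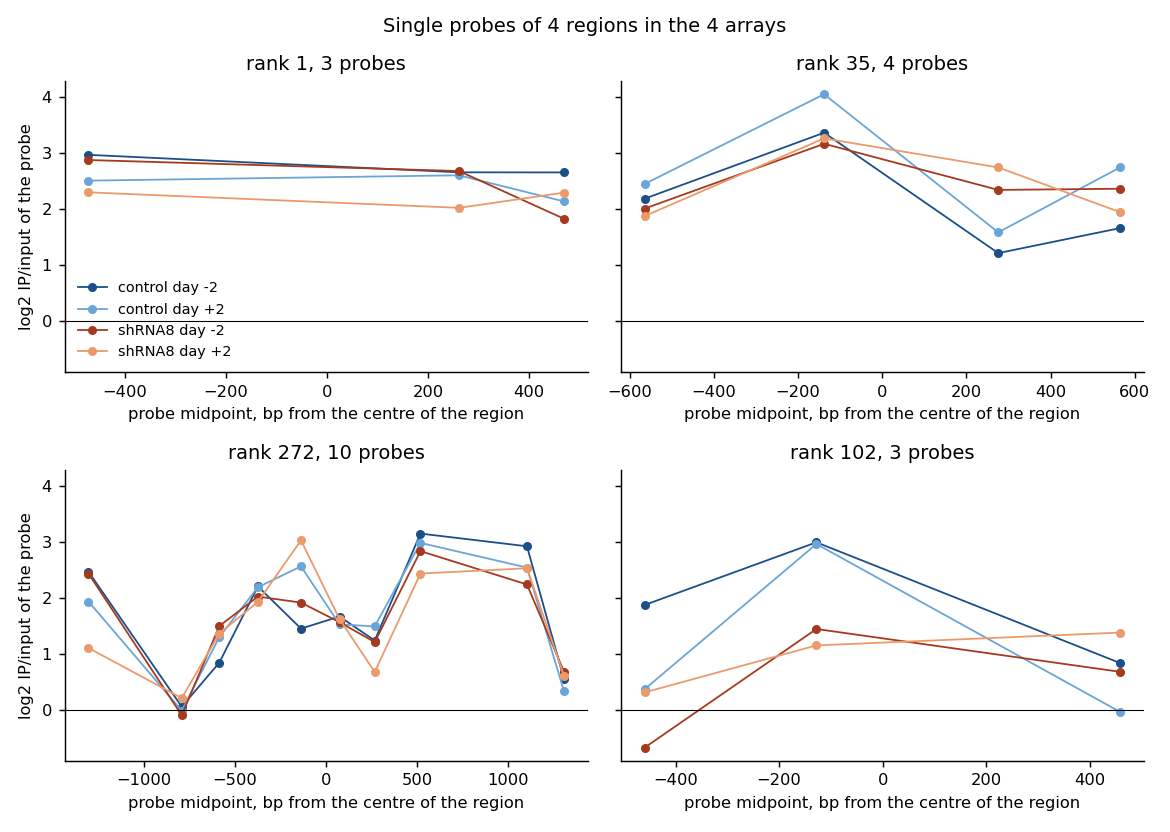
Log2 IP/input of single probes against the distance of the probe's midpoint from the centre of the region, 1 line per array, for the members of rank 1 (highest), 35 (highest lowest value in the other arrays), 272 (10 probes) and 102 (largest fall). Along the 10 probes of rank 272 the 4 lines lie close at some probes and spread at others (1.45, 2.56, 1.91 and 3.03 at -137.5 bp). At rank 102 control day -2 lies apart at the first probe. At the second probe of rank 102 the control arrays (2.99 and 2.96) lie above the shRNA8 arrays (1.44 and 1.15).

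With the filter on input used here, members differed little from all regions in probe length (-0.175 bases in the mean). With 500 regions chosen anew from the 21019 regions without that filter, the difference was -2.28 bases. Probes were 45 to 60 bases long. The mean probe length of a region was 46.9 ± 2.2 bases (SD, n = 500) in members and 47.1 ± 2.5 over all regions, and both medians were 46.25. Regions made only of probes of 45 bases were 24.6% of the members and 22.9% of all regions. Members made up 2.81% to 3.46% of the regions in each class of mean probe length up to 52 bases, and 1.68% among the 893 regions whose mean exceeded 52.

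The longest probes of members were brighter in IP than other probes of that length. Among probes of 55 to 60 bases the median log2 IP in control day -2 was 9.25 in members and 7.54 over all regions, and the median ratio was 1.67 and -0.38. Among probes of 45 bases the IP medians were 10.2 and 10.1 and the ratios 1.77 and 0.37. In control day +2 the long probes had IP medians of 9.31 in members and 7.50 over all, and probes of 45 bases 10.2 and 10.1. Member probes of 45 bases had a dim input in control day -2 (8.30 against 9.59 over all regions). On the other arrays it was also dimmer (8.39 against 9.60, 8.71 against 9.78 and 8.81 against 9.82). The long probes had a dimmer input in control day -2 (7.35 against 7.85), the array of the choice. Elsewhere their input was 7.68 against 7.84 in control day +2 and 7.886 against 7.889 in shRNA8 day -2. In shRNA8 day +2 it was brighter in members (8.22 against 8.14). Their IP was brighter in members in shRNA8 cells too (9.39 against 7.60 at day -2, 9.46 against 7.62 at day +2).

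Members lay on every autosome. Their share of a chromosome's regions ran from 1.99% on chromosome 19 (11 of 554) to 3.92% on chromosome 14 (25 of 638), with 3.91% on chromosome 13 (25 of 640). The shares on chromosomes 16, 17 and 18 were 2.08%, 2.05% and 2.10%. Chromosomes 7 and 2 held most members, 47 and 46.

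Most windows held no member or 1, and these counts were not tested against expected ones. Of the windows of 2 Mb that held any region, 820 had no member, 230 had 1, 77 had 2, 22 had 3, 7 had 4, 2 had 5 and 2 had 6. On chromosome 8 between 86 and 88 Mb, 6 of 56 regions were members, with ratios of 1.53 to 1.80 in control day -2, 1.49 to 2.04 in control day +2, 1.16 to 1.83 in shRNA8 day -2 and 1.02 to 1.81 in shRNA8 day +2. On chromosome 13 between 22 and 24 Mb, 6 of 60 were members (1.56 to 2.13, then 1.23 to 2.19, 1.00 to 1.91 and 0.86 to 1.74). Windows with 5 were on chromosome 7 between 110 and 112 Mb (1.52 to 1.85, then 1.42 to 1.93, 0.76 to 2.08 and 0.29 to 1.32) and on chromosome 10 between 80 and 82 Mb (1.51 to 2.18, then 0.97 to 2.10, 1.18 to 1.85 and 0.93 to 1.68). The medians of all regions in these 4 windows, in the order named, were 0.31, -0.003, 0.20 and 0.26 in control day -2.

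There were 5 pairs of neighbouring members within 10000 bp of each other. Of all 16774 regions, 3332 had a neighbour at that distance, and the number of pairs was not tested against an expected one. At chr7:26086150-26086604, the member of rank 6, the neighbour chr7:26090328-26091538 had 1.71, 1.93, 1.83 and 1.90, and both were in the 500 of all arrays. The 107 neighbours within 10000 bp that were no members had median ratios of 0.43 in control day -2, 0.38 in control day +2, 0.30 in shRNA8 day -2 and 0.26 in shRNA8 day +2. All regions with a neighbour at that distance had 0.25, 0.24, 0.17 and 0.16. Within 50000 bp the neighbours' medians were 0.23, 0.19, 0.18 and 0.16, against 0.19, 0.19, 0.12 and 0.11. As members were left out of these neighbours, values under the limit of 1.51 in control day -2 were set by the choice.

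Differences between lines and days were taken on quantile-normalized ratios. Members are called higher or lower where the mean difference reached 0.6 in log2 (1.52-fold) and 75% or more of the probes went the same way. Setting shRNA8 against control cells at day +2 does not use the array of the choice. There 8 members were higher (1.6%, against 1.42% of all regions) and 13 lower (2.6%, against 1.93%). The median difference was -0.07 over members and 0.02 over all regions, with an SD of 0.30 and 0.29. With median centring alone the split was 0.4% higher and 6.4% lower, or 6.8% in all against 3.53% of all regions, so both the balance of directions and the distance from all regions moved with the normalization. The shares of members called on quantile-normalized ratios were close to those of all regions.

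The 4 largest positive differences between the lines at day +2 were at chr3:137526805-137527458 (1.02 ± 0.74, SD over 3 probes), chr7:4483547-4484206 (0.73 ± 0.58), chr10:80561269-80561944 (0.69 ± 0.41) and chr1:134372726-134374419 (0.68 ± 0.73). At the first of these the ratio was 1.71, 1.39, 1.74 and 2.20 on the 4 arrays, with an IP difference of -0.01 and an input difference of -0.85. The most negative were chr7:110976161-110977087 (-0.99 ± 0.50 over 4 probes), chr7:105588497-105589003 (-0.83 ± 0.41), chr11:58598612-58600039 (-0.80 ± 0.34) and chr6:72547326-72549079 (-0.73 ± 0.85). Their ratios in control and shRNA8 cells at day +2 were 1.42 and 0.29, 2.42 and 1.38, 2.30 and 1.28, and 1.99 and 1.06. Over the 21 members past this rule, IP differences ran from -0.08 to 0.10 and those of the input from -0.85 to 1.11. Channel differences were taken minus their median over all probes kept. Over all regions too the input differed more, with an SD of 0.0537 for IP and 0.29 for input, against 0.0475 and 0.30 over all members.

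Between the days in shRNA8 cells, likewise free of the array of the choice, 6 members were higher at day +2 (1.2%, against 0.972% of all regions) and 16 lower (3.2%, against 2.16%). The largest positive differences were at chr10:126959208-126960529 (1.18 ± 1.98 over 4 probes), chr8:105871234-105872214 (1.05 ± 1.40), chr14:71649795-71650574 (0.90 ± 0.73) and again chr1:134372726-134374419 (0.75 ± 0.89). The first had 1.69 and 1.80 in control cells, 0.35 in shRNA8 cells at day -2 and 1.43 at day +2, so a single array stood apart. On the negative side were chr19:58679963-58680922 (-1.02 ± 0.85 over 3 probes), chr2:152397876-152398814 (-0.90 ± 0.17), chr12:82068581-82069700 (-0.86 ± 0.65) and chr7:110476112-110477192 (-0.79 ± 0.89). At chr12:82068581-82069700 the ratio was 2.12, 2.56, 2.68 and 1.68, and its value in shRNA8 cells at day -2 was the highest of any region on that array. The 22 members past the rule differed by -0.15 to 0.19 in IP and by -1.12 to 0.99 in input. Over all regions the SD of these differences was 0.0656 for IP and 0.26 for input, against 0.0589 and 0.28 over all members.

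The 2 comparisons with the array of the choice are given without reading anything from them. Between the lines at day -2, 2 members were higher (0.4%, against 1.2% of all regions) and 26 lower (5.2%, against 1.25%). In control cells no member was higher at day +2 (against 1.02% of all regions) and 24 were lower (4.8%, against 1.07%). 

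Calls in the same direction at both days or in both lines rest in part on the array of the choice, so they are given as counts only. The ratio was called lower at day +2 in both lines in 3 of 500 members and 45 of 16774 regions. It was called lower in the shRNA8 line at day -2 as well as day +2 in 2 members and 33 regions. Opposite calls occurred in no member, and they were rare over all 16774 regions too. Between the lines they occurred in 6 regions in one order of the days and 2 in the other. Between the days they occurred in 2 regions in each order of the lines.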

How the data were processed

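DNA pulled down with an antibody against 5-methylcytosine (Cy5) and input (Cy3), 1 µg each per the labels' protocols, was hybridized to 4 arrays, 1 per line and day. The deposited intensity columns come from Feature Extraction 11.0.1.1 with build mm9, per the file headers, and hold median spot, background-subtracted and processed (dye-normalized) signals. The deposited log10 ratio equals that of the processed signals and was not used further. Limma is named in the submitters' processing notes without its use. Members and alternatives were chosen with earlier results of these data known. The ratio was log2 of processed Cy5 over processed Cy3, not normalized between arrays except for differences between arrays. Net signals are the background-subtracted ones. Regions named in the text were the 10 highest, the 8 with the highest lowest value in the other arrays, the 8 largest falls, 5 on each side of the limit, the 6 with most probes, the 4 largest differences past the rule in each direction, and windows of 2 Mb with 5 or more members. The neighbour pair was named after its values were seen. The gene lists planned were not analysed here, as no annotation of mm9 was used. The number of arrays limits the precision. Region joining and calls were tested on simulated data. Python 3.11.15, numpy 2.4.6, pandas 2.3.3, matplotlib 3.10.9, R 4.3.3 and limma 3.58.1 were used.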

Additional observations from a re-analysis of the deposited data

How the results depend on the processing

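No paired analysis was possible because each line and day had 1 array, so no group shares 2 replicate numbers with another. An additive model of line and day was not run. For the share of members in the 500 of all 4 arrays (35.0%), other settings took the 500 anew. It was 58.6% with input well above background, 23.2% with the median of probes, 20.2% after a within-array loess, 70.0% with median signals without background subtraction and 92.2% for regions ranked by IP alone. The choice itself moved too: 279 of the 500 members were chosen again with the median of probes, 312 after the loess, 396 with the probe length median subtracted, 151 without background subtraction, 14 by IP alone and 73 by low input alone. The level in the other arrays against all regions (1.38) was 1.08 after the loess, 0.161 by IP alone and 0.0735 by low input alone. The IP gap (0.467, the mean of the members minus the median of all regions, averaged over the other 3 arrays) was 1.2 without a filter, 1.48 without background subtraction, 2.1 by IP alone and -1.82 by low input alone. The input gap (-0.84) was -0.0231, 0.488, 2.01 and -1.82 in the same order, so it changed sign for regions chosen without background subtraction and by IP alone. Both gaps were taken on the processed signals in every setting, against the median of the regions of that setting (21019 regions without a filter). The probe length gap (-0.175 bases) was 3.8 by low input alone, and its sign varied over the settings. It was -2.28 without a filter, -1.11 without background subtraction and -1.47 by IP alone. Members past the size rule between the lines at day +2 (4.2%) came to 1.2% with 5 or more probes, 0.8% with input well above background, 8.0% after the loess, 0.2% without background subtraction, 0.4% by IP alone, 12.4% by low input alone, 6.4% for 250 regions and 6.8% with median centring alone, an alternative chosen after seeing the data. Of all regions, 3.36% were past that rule between the lines, and 1.96%, 0.958%, 6.52% and 0.107% under the first 4 of these settings. Between the days in shRNA8 cells (4.4%) this was 1.0%, 0.2%, 7.4%, 0.0%, 0.2% and 16.2% for the first 6 of these, and 2.0% without a filter. The shares of all regions were 3.13%, and 2.37%, 1.03%, 5.31%, 0.0715%, 3.13% and 3.13% for those 6, and 2.48% without a filter. Many of these ratios rest on a dim input, and its part in these changes was not tested.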

Other observations

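Chromosome X was outside the choice. By the same joining it had 703 regions, of which 12 (1.71%) were at or above the autosomal limit of 1.51 in control day -2, against 2.98% of autosomal regions. Those 12 had median ratios of 1.74 in control day -2, 1.80 in control day +2, 1.60 in shRNA8 day -2 and 1.41 in shRNA8 day +2, with medians of 0.12, 0.08, 0.01 and -0.001 over all regions of the chromosome.

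Choosing 500 regions on each array in turn, alternatives chosen after seeing the data, left 91 regions found on no other array for control day +2, 76 for shRNA8 day -2 and 108 for shRNA8 day +2, beside the 90 for control day -2.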
